A study of Homo sapiens with 32 samples.

Results

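Binding of the transcription factor HNF4α was compared in AsPC1 cells, an established human pancreatic ductal adenocarcinoma line, between cells in which the P2 promoter of HNF4A was targeted by CRISPR interference (genotype sgP2) and cells labelled sgNC, the comparison genotype. CRISPR interference silences a promoter by directing a catalytically dead Cas9, usually fused to a repressor, to it with a guide RNA. Chromatin immunoprecipitation followed by sequencing (ChIP-seq) gave 1 list of peaks, the stretches of genome enriched over background, for each library. The overlapping peaks of the 4 lists, 2 per genotype, were merged where they shared 1 bp or more, and each merged region was classed by the lists that held a peak in it. Of 27043 merged regions, 1948 (7.2%) were held by both sgNC lists and by neither sgP2 list and are called lost. Another 110 regions (0.407%) were held by both sgP2 lists and by neither sgNC list and are called gained. All 4 lists held 9188 regions (34%), called kept, and the remaining 15797 regions fell under other combinations.

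HNF4α is a nuclear receptor that binds DNA as a homodimer and activates genes of liver, gut, kidney and pancreas, among them genes of lipid, bile acid and glucose metabolism and of the epithelial brush border. HNF4A is transcribed from a proximal promoter, P1, and a distal promoter upstream of it, P2, and the proteins made from them differ at their N-terminus, where P2 products lack the first activation domain. The DNA-binding domain is common to both, so an antibody to a shared part (pan-HNF4α) recovers both kinds of protein, while an antibody to the P1 N-terminus recovers only P1 products.

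The series holds 32 libraries of 3 pancreatic cancer lines, of which 18 come with a peak list and 14 are inputs without antibody, not used here. The 4 libraries compared are AsPC1 grown as a 2D line, 2 replicates of sgNC and 2 of sgP2, all immunoprecipitated with the pan-HNF4α antibody PP-H1415 after crosslinking with disuccinimidyl glutarate and formaldehyde. The other AsPC1 lists used for reference are sgP1, in which P1 was targeted, with the pan antibody, and sgNC and sgP2 with the P1-specific antibody PP-K9218. BxPC3 and Panc10.05 cells induced with doxycycline to express P1-α2 or P2-α8 gave the remaining 8 lists, all with the pan antibody. BxPC3 cells received doxycycline at 500 ng/mL. Panc10.05 cells with P1-α2 received 25 ng/mL, and those with P2-α8 received 12.5 ng/mL. The labels do not say whether a genotype is 1 clone or a pool, or whether replicates are separate cultures, so the p-values below measure only the spread between these libraries. How deeply each library was sequenced is unknown, and absence from a list means that no peak passed the caller's threshold there, which is not the same as absence of binding.

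The sequences below are shown because the loss and the retention of peaks can be read at named promoters. Each runs from 250 bases before to 50 bases after a transcript start in RefSeq (GRCh38.p14), 5′ to 3′ on the gene's strand. The first is the P2 promoter of HNF4A, where the peak was lost, and the second is its P1 promoter. The other 3 are promoters of kept regions that hold an exact HNF4 motif, CAAAGTCCA, whose reverse complement on the strand shown is in capitals.
HNF4A P2 promoter, chr20:44355449-44355748, plus strand: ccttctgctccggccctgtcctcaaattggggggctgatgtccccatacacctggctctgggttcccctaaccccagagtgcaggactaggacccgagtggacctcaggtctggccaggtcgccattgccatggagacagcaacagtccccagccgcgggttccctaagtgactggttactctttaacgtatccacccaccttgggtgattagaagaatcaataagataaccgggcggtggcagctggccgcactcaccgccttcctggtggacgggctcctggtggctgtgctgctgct
HNF4A P1 promoter, chr20:44400989-44401288, plus strand: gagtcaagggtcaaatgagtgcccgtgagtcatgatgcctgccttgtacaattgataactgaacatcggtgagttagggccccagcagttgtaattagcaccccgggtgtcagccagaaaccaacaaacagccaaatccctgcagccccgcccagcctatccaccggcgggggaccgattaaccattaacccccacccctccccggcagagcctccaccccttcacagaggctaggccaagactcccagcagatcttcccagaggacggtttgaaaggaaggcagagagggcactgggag
CIDEB promoter, chr14:24307928-24308227, minus strand: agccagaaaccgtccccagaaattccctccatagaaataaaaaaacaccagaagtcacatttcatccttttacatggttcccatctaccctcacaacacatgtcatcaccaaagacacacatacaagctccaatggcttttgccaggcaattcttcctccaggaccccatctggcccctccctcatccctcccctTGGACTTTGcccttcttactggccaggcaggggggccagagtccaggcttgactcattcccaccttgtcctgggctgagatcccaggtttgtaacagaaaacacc
GPR35 promoter, chr2:240605180-240605479, plus strand: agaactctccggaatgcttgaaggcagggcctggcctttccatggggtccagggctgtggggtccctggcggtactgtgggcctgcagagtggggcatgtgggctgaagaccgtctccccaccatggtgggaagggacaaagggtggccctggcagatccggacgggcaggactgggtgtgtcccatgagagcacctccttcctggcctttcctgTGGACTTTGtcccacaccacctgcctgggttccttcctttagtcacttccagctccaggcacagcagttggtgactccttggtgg
SLCO2B1 promoter, chr11:75159582-75159881, plus strand: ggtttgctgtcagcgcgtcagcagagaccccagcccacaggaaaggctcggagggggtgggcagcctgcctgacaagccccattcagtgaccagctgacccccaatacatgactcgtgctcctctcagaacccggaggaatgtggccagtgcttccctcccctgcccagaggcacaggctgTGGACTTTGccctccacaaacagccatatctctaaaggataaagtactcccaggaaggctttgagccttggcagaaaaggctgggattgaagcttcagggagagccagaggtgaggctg
Neither HNF4A window holds CAAAGTCCA or the direct-repeat form CAAAGGTCA on either strand. A match or its absence describes these letters only.

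The targeted locus itself was examined first. The authors' fold enrichment, the linear ratio of a peak's signal over the background used in peak calling, was 20.2 in sgNC replicate 1 and 17.4 in sgNC replicate 2 for the peak at the P2 start of HNF4A. This region, chr20:44354854-44355943, spans the start, and the summits lay upstream of it, at -0.212 and -0.195 kb. Neither sgP2 list held a peak within 1 kb of the P2 start: the nearest summits lay at -145 kb and, in replicate 2, at -44.5 kb. In the sgP1 lists the peak was present at 14.4 and 12.3. The P2 promoter peak was held by 4 of 4 sgNC and sgP1 lists and by 0 of 2 sgP2 lists, and among all lost regions it had the highest mean sgNC percentile of fold enrichment.

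At the P1 start, which lies downstream, the sgNC peaks were lower, at 6.21 and 4.49. The sgP2 replicate 1 list held none there and the sgP2 replicate 2 list held one at 3.68, so this region fell under the other combinations. Neither sgP1 list held a peak within 1 kb of the P1 start. None of the 4 lists made with the P1-specific antibody, and none of the 8 induced lists, held a peak within 1 kb of either start.

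**Figure D1:**
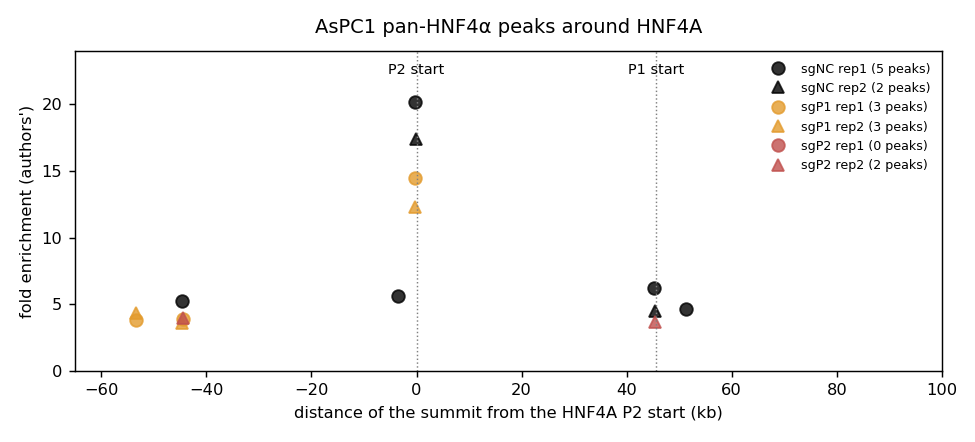
Pan-HNF4α peaks of the 6 AsPC1 lists around HNF4A. The x axis is the distance of each summit from the P2 start in kb, the y axis the authors' fold enrichment (linear); circles are replicate 1 and triangles replicate 2, and dotted lines mark the P2 and P1 starts. The sgNC and sgP1 peaks stand at the P2 start between 12.3 and 20.2, and no sgP2 peak is drawn there.

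The sgNC lists held 24295 and 15118 peaks and the sgP2 lists 12345 and 15116. The log2 ratio of peak number, sgP2 to sgNC, was -0.49, with an SD of 0.484 among the sgNC and 0.207 among the sgP2 libraries (n = 2 each). A two-sided exact permutation test gave p = 0.333, the smallest this design allows, and 0.556 after Benjamini-Hochberg adjustment over 5 measures. The sgNC replicate 2 and sgP2 replicate 2 lists thus differed by 2 peaks, while replicate 1 was the longer of the sgNC lists and the shorter of the sgP2 lists. Width at the median was 454 and 428 bp in sgNC and 391 and 413 bp in sgP2, a difference of -39 bp (exact permutation p = 0.333, adjusted 0.556).

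The list lengths bear on the classes directly. Leaving out sgNC replicate 2, so that a single sgNC list sufficed, gave 9450 lost regions, and leaving out sgP2 replicate 2 gave 3827. The gained count moved from 110 to 952 without sgNC replicate 1, to 1195 without sgP2 replicate 1 and to 590 without sgP2 replicate 2. When each list was reduced to its 12345 peaks of highest fold enrichment, 676 regions were lost and 564 gained, so the excess of lost over gained regions in the full lists was largely absent at equal length. Of the 1948 lost regions, 539 (27.7%) were still lost at equal length, against 7569 of 9188 (82.4%) kept regions that were still kept. The 10 highest-ranked lost regions named below were lost under this setting too. That outcome was set by their choice: they were picked for high fold enrichment, by which the lists were cut.

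**Figure D2:**
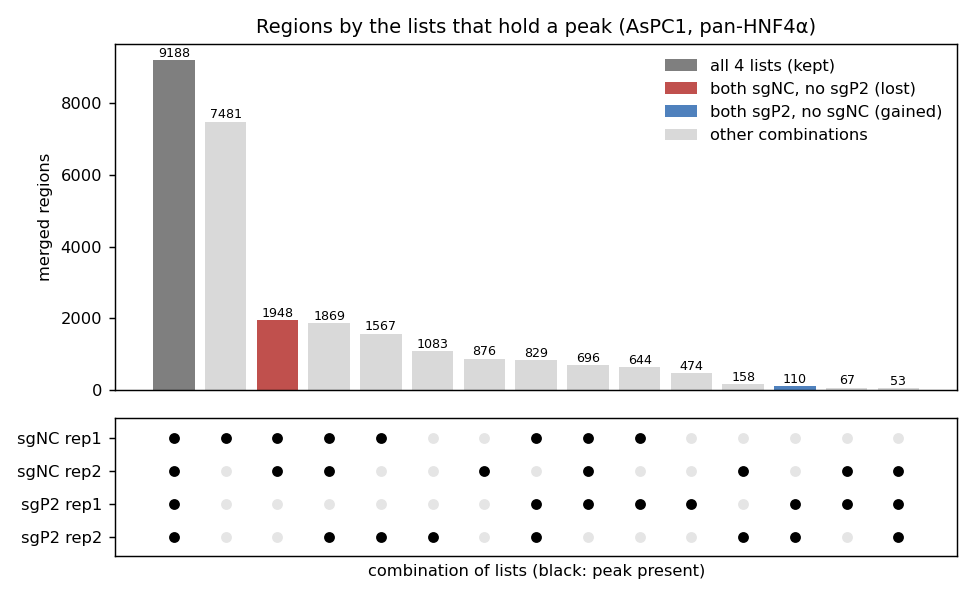
Merged regions by the combination of lists that hold a peak. The y axis counts regions, and black points under each bar mark the lists with a peak. The tallest bars are the 9188 kept regions and the 7481 regions held by sgNC replicate 1 alone, the longest list; 1948 regions were lost and 110 gained.

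Both sgNC lists held 13701 regions, and the fate of these in sgP2 followed their rank. Of them 9188 (67.1%) were kept, 2565 (18.7%) were held by 1 sgP2 list and 1948 (14.2%) were lost. Of the 10180 regions in both sgP2 lists, 90.3% were kept and 1.08% were gained. Ranks are given as percentiles of fold enrichment within a list, from 0 for the weakest peak to 100 for the strongest, because values of lists made separately are not on a common scale. Lost regions were weak peaks: their median percentile was 39.7 in sgNC replicate 1 and 25.6 in replicate 2, with a median fold enrichment of 5.88 and 5.06. Kept regions had medians of 80.2 and 68.1 in sgNC and 61.9 and 68.6 in sgP2, with fold enrichments of 12.8, 9.02, 8.42 and 9.30. Kept regions were also wider, 758 bp at the median against 451 bp for lost regions.

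By the mean of the sgNC percentiles, 49.1% of regions in both sgNC lists were lost in the band from 0 to 20, 33.8% from 20 to 40, 15.8% from 40 to 60, 3.57% from 60 to 80 and 0.285% from 80 to 100. The kept share ran the other way, 18.1%, 32.0%, 55.4%, 84.2% and 98.9%. In the top band 10 of 3507 regions were lost and 3470 kept. Few of the strongest sgNC sites were lost, and the highest-ranked of these 10 was the P2 promoter of HNF4A.

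**Figure D3:**
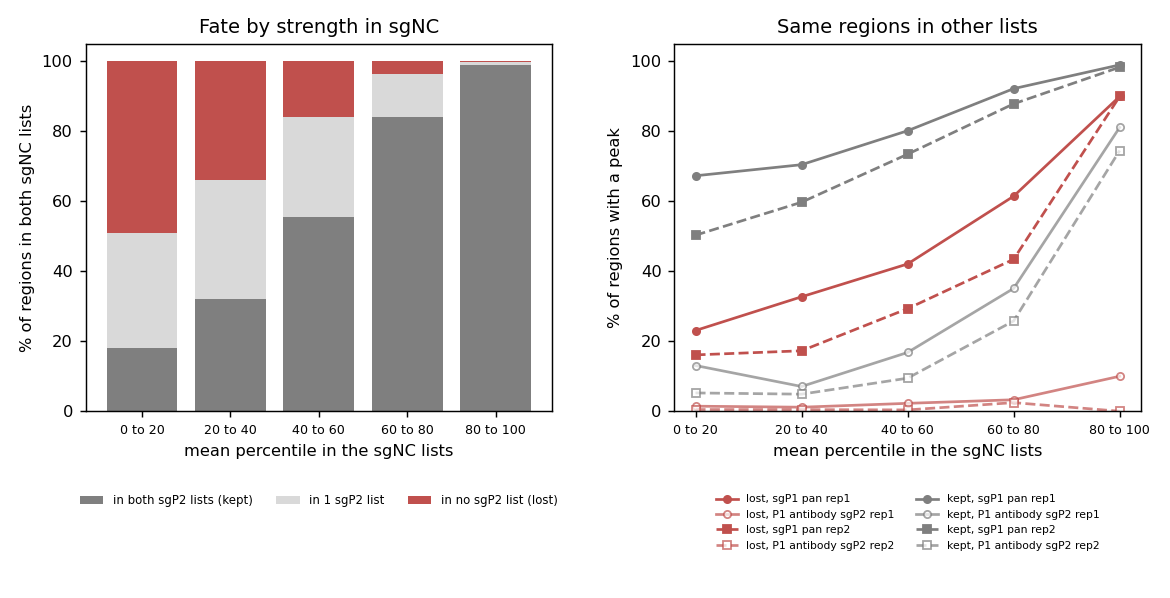
Left, the share of regions in both sgNC lists that were kept, held by 1 sgP2 list or lost, by the mean sgNC percentile of fold enrichment. Right, the share of lost (red) and kept (grey) regions with a peak in the sgP1 pan lists (filled) and in the sgP2 lists of the P1-specific antibody (open), by the same bands. The lost share falls from 49.1% to 0.285% from the weakest to the strongest band; in the band from 20 to 40, sgP1 lists held 32.7% and 17.3% of lost regions and 70.5% and 59.8% of kept ones.

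Position was read against transcript starts and protein-coding genes of RefSeq, with chromosome 8 left out of the shares. Of 1866 lost regions, 230 (12.3%) lay within 1 kb of a start, 789 (42.3%) elsewhere inside a protein-coding gene, 506 (27.1%) within 50 kb of one and 341 (18.3%) farther away. Of 8711 kept regions the same shares were 15.0%, 45.0%, 26.3% and 13.6%. The 104 gained regions divided into 12 (11.5%) at starts, 34 inside genes, 34 within 50 kb and 24 (23.1%) beyond. These shares depend on strength. In the sgNC band from 0 to 20, 21.1% of lost and 27.1% of kept regions lay at starts, and in the band from 60 to 80 the shares were 2.50% and 14.8%. In that upper band 30.8% of lost and 14.4% of kept regions lay over 50 kb from any protein-coding gene. In the band from 80 to 100, 10% of lost and 11.5% of kept regions lay at starts. With chromosome 8 counted, the band from 60 to 80 held 122 lost and 2882 kept regions. The band from 80 to 100 held 10 and 3470. Most strong sites of both classes thus lay away from promoters. The classes were set by these same lists, so no test was made.

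Between whole libraries the positions differed little, and no position measure could pass a threshold of 0.05 in this design. Summits within 1 kb of a start made up 17.2% and 14.6% of sgNC peaks and 15.7% and 16.5% of sgP2 peaks, a difference of 0.201 percentage points (exact permutation p = 1, adjusted 1). This difference turned to -1.11 points without sgNC replicate 2 and to -0.19 without sgP2 replicate 2. Summits inside protein-coding genes differed by 0.369 points (p = 0.667, adjusted 0.833, exact permutation) and summits over 50 kb from one by -0.477 points (p = 0.333, adjusted 0.556, exact permutation).

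A kept region lay within 10 kb of 458 lost regions (23.5%) and within 50 kb of 1067 (54.8%), and the distance to the nearest kept region was 40.9 kb at the median. Among kept regions, 61.7% had another kept region within 50 kb, and the median distance was 31.3 kb. The lost share of the regions in both sgNC lists ran from 11.6% on chromosome 20 to 19.1% on chromosome X among the autosomes and X.

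Among the 10 lost regions with the highest mean sgNC percentile, only the P2 promoter of HNF4A lay at a transcript start. The second was chr16:66714771-66715529, 5.74 kb outside DYNC1LI2, which encodes a light intermediate chain of cytoplasmic dynein, with fold enrichments of 20.4 and 12.7 in sgNC. The third lay inside FHL1, which encodes a LIM-domain protein, at chrX:136182909-136183559, with 17.5 and 12.5. The fourth lay inside TGFBR2, the type II receptor of TGF-β, at chr3:30625724-30626473. Its sgNC values were 25.1 and 10.6, and it was held by all 8 induced lists and both sgP1 lists. No sgP2 summit lay within 40 kb of it, the nearest being 42.0 kb away in both replicates.

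A pair of the 10 had SPRY1, an inhibitor of receptor tyrosine kinase signalling, as the nearest protein-coding gene. The nearer of these, chr4:123478754-123479179, lay 75.2 kb from it with 13.4 and 13.2 in sgNC, and was in no other list. The farther one, chr4:123603202-123603658, had 14.8 and 11.7 and was present in both sgP1 lists. The rest of the 10 lay 2.67 kb from C14orf180 (17.8 and 10.4), 249.7 kb from GPAT3, an acyltransferase of triglyceride synthesis (12.1 and 13.2), inside LOC107984449 (17.0 and 10.4), and 141 kb from RUNX1, a transcription factor of blood development (14.4 and 11.2). With the P1-specific antibody, the RUNX1 region had an sgP2 peak in replicate 1 at percentile 35.7 and the LOC107984449 region an sgNC peak in replicate 1 at percentile 57.2.

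At the stricter requirement of a −log10 q of at least 20 in both sgNC lists, 28 of the 1948 lost regions remained, of which 1 lay at a start, 8 elsewhere inside genes, 8 within 50 kb of a gene and 11 farther away. Beyond the 10 above, they included regions inside ZC3H7B, SRL and PDLIM5 and regions 194 kb from MEIS1, a homeobox factor, and 356 kb from NRP1, a semaphorin and VEGF co-receptor; these were chosen after their values were seen. Other lost regions at starts were weaker than that of HNF4A. The next by rank, also named after their values were seen, lay at the starts of WNT5B, a Wnt ligand (13.04 and 7.41), KSR1, a scaffold of the RAF-MEK-ERK cascade (12.6 and 7.43), INVS, the ciliary protein inversin (12.8 and 6.37), and IGFL2 (9.68 and 6.44). LYSMD4, ZBTB48 and LRP11 followed with 9.22 to 10.6 in sgNC replicate 1 and 5.93 to 6.15 in replicate 2.

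By nearest gene, the 1948 lost regions were spread over 1646 protein-coding genes, of which 1415 had a single one, and 928 (56.4%) were also nearest to a kept region. SERPINE2, a secreted serine protease inhibitor, had the most with 6 lost and 5 kept regions. TGFBR2 had 5 lost and 1 kept, TNS3, a focal adhesion protein, 5 lost and 14 kept, TOX3, an HMG-box factor, 5 lost and 5 kept, and CLXN 5 lost and 3 kept. The nearest gene can be far away. The farthest lost regions lay 156971 bp outside SERPINE2, 522124 bp outside TNS3, 295588 bp outside TOX3 and 196204 bp outside CLXN. The 5 TGFBR2 regions all lay within the gene span, and 4 of them were weak, with sgNC fold enrichments from 3.59 to 6.38, against 25.1 and 10.6 for the fifth. The SERPINE2 regions had fold enrichments from 3.60 to 8.25. Another 11 genes had 4, among them JUN, a subunit of AP-1, with 7 kept regions, ZBTB20 with 2 and RTN4 with none. The farthest lost region of JUN lay 245635 bp outside it.

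The strongest kept sites had values of another order. The kept region with the highest mean percentile, chr10:133377862-133379547, lay 0.558 kb outside PAOX, a polyamine oxidase, with 132.7 and 100.2 in sgNC and 107.9 and 118.1 in sgP2. By percentile it was the first peak of sgNC replicate 2 and sgP2 replicate 2 and stood at 99.98 and 99.99 in the other lists. Inside NDST1, an enzyme of heparan sulfate synthesis, chr5:150541877-150543748 had 195 and 94.6 in sgNC and 122 and 66.6 in sgP2. A region 75.1 kb from NRIP1, a nuclear receptor corepressor, chr21:15140090-15141981, had 166 and 52.9 in sgNC and 87.1 and 111 in sgP2. The others of the first 10 lay near DNAAF5, LENG8, SIRPA and CLRN3 and inside TAFA5, TCF7L1 and MIA2. Their fold enrichments ran from 55.9 in sgNC replicate 2 at SIRPA to 189.6 in sgNC replicate 1 at DNAAF5. All 10 were present in both sgP1 lists and in all 4 lists of the P1-specific antibody, and 8 of the 10 in all 8 induced lists.

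The HNF4 motifs were found in a larger share of the promoters of kept regions than of the table as a whole, a description with no test. Both motifs were searched on both strands in windows of 300 bases. CAAAGTCCA was in 43 of 1836 windows overlapped by kept regions (2.34%), in 0 of 251 overlapped by lost regions, in 0 of 8 overlapped by gained regions and in 135 of 35116 in the whole table (0.384%). With CAAAGGTCA counted as well, which shares the first letters of the other, the counts were 60 (3.27%), 1 (0.398%), 0 and 278 (0.792%). Kept promoters whose mean sgNC percentile was under 60, the range that holds most lost regions, had either motif in 11 of 709 windows (1.55%), against 1 of 242 lost ones (0.413%). The median GC content of the windows was 63.3% for lost and 65.0% for kept regions, against 58.7% in the table.

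The 3 kept promoters printed above were high in all 4 lists. CIDEB, a lipid droplet and lipoprotein protein, had 46.2 and 39.2 in sgNC and 49.8 and 48.7 in sgP2, with the motif starting 55 bases before the start. GPR35, a G protein-coupled receptor of the gut, had 25.7 and 26.2 in sgNC and 39.6 and 31.8 in sgP2, with the motif 35 bases before it. SLCO2B1, an organic anion uptake transporter, had 47.1 and 20.4 in sgNC and 35.1 and 26.4 in sgP2, with the motif 69 bases before it. By percentile within each list, the sgP2 values lay between those of sgNC at SLCO2B1 and above both at CIDEB and GPR35. The P2 promoter of HNF4A, at 20.2 and 17.4 in sgNC, lay below the sgNC values of all 3 in each list.

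The order among kept regions was compared next. When percentiles were taken among the 9188 kept regions alone, both sgP2 lists ranked a region below both sgNC lists in 1691 cases (18.4%) and above both in 1776 (19.3%). The means of the genotypes differed by 8.89 points at the median, and single lists by 11.1 points between the sgNC and 10.7 points between the sgP2 replicates. A difference of means over 2 lists is smaller by construction than one between single lists, so nothing is read from these values. The region that fell most lay near NUP93, a nucleoporin, at chr16:56856612-56857353, from percentiles of 74.3 and 78.2 in sgNC to 8.45 and 6.52 in sgP2. Its fold enrichments were 19.4 and 14.3 against 4.64 and 4.50. Regions near TTLL7 and 56728 bp outside RAI14 fell by 57.6 and 65.0 points. Those inside CXADR, a tight junction-associated adhesion protein, and SUFU, a repressor of Hedgehog signalling, fell by 61.6 and 59.3 points.

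The region that rose most lay inside AGXT, the peroxisomal glyoxylate aminotransferase of liver, at chr2:240876278-240876959, from 12.1 and 1.47 in sgNC to 63.4 and 72.7 in sgP2. It was followed by regions inside UBE2V2 and MAP7D3 and at the starts of IL18R1, an interleukin-18 receptor chain, and PAEP, the lipocalin glycodelin. At the IL18R1 start, chr2:102355565-102356353, fold enrichment was 6.996 and 6.90 in sgNC and 13.5 and 15.6 in sgP2. At the PAEP start, chr9:135561581-135562376, it was 7.19 and 6.11 in sgNC and 12.4 and 12.7 in sgP2. These regions were picked for their ranks, so their values are a description.

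Gained regions were few and weak, with median percentiles of 17.4 and 21.1 in the sgP2 lists and a median width of 373.5 bp. The highest-ranked lay inside ITM2B, a transmembrane protein, at chr13:48263216-48263600, with fold enrichments of 7.71 and 7.82. Those inside AGBL1 (8.06 and 6.77), UTRN, which encodes utrophin (6.40 and 8.24), and GABBR2, a GABA-B receptor subunit (6.72 and 7.07), followed. Others among the first 10 lay near RGS1 and IER3, inside SLC35D4, and farther off at 186 kb from PMEPA1 and 304 kb from DPPA4. None of the 10 was gained at a −log10 q of at least 20, and all 10 were at equal list length by fold. The latter was set by their choice, as they were picked for high fold enrichment. At transcript starts, named after their values were seen, gained regions lay at FEM1B (4.61 and 10.0), MRPL12 (6.74 and 5.78) and CAV1, which encodes caveolin-1 (5.27 and 4.74).

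Genes were then read in 12 lists of 179 genes that cover known HNF4α pathways, epithelial programmes and other cell types. A lost region lay within 50 kb of 3036 of 19866 protein-coding genes (15.3%), a gained region near 172 (0.866%) and a kept region near 9543 (48%). A total of 487 genes (2.45%) had a lost region and no sgP2 peak within that distance. Of the 179 list genes, 31 had a lost region nearby, and these shared 35 distinct regions. The count of list genes was 47 without sgNC replicate 1, 123 without sgNC replicate 2 and 55 without sgP2 replicate 2. The all-gene count was 10099 without sgNC replicate 2 and 5588 without sgP2 replicate 2. At equal list length the list genes numbered 16 and all genes 1009.

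Epithelial junction genes had lost regions near 7 of 15 members (46.7%, against 15.3% of all protein-coding genes). They had kept regions near 14 of 15 (93.3%, against 48.0%). The 7 were CLDN1, CLDN7, OCLN, TJP1, CGN, PKP3 and DSP, which encode tight junction and desmosome proteins. The highest by mean percentile, chr1:151568576-151568876, lay 30.0 kb outside CGN, cingulin, with TUFT1 as the nearest gene. Its fold enrichments were 6.80 and 5.25 in sgNC, and the nearest sgP2 summits lay 1.26 and 1.24 kb away. Of the 7 genes, 6 kept other regions within 50 kb. CLDN1, claudin-1, had no sgP2 peak within 50 kb; its lost region, chr3:190307257-190307580, had 5.19 and 4.58. At equal list length 1 of the 15 members, CGN, had a lost region, against 1009 of all 19866 genes. Without sgNC replicate 2 the count of members was 14, against 10099 of all genes. CDH1, which encodes E-cadherin, kept 4 regions, the highest at chr16:68792256-68793505 with 42.9 and 29.1 in sgNC and 25.6 and 34.7 in sgP2. Kept regions at F11R, CLDN4 and TJP3 also stood at percentile 84.7 or higher in all 4 lists.

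Brush border and enterocyte genes, textbook targets of HNF4 factors in the intestine, had kept regions near 15 of 17 members (88.2%, all genes 48.0%). Lost regions lay near 4 (23.5%, all genes 15.3%): CDH17, LGALS4, MYO7B and DPP4. Each of the 4 also had 3 to 6 kept regions, and at equal length none of the 17 had a lost region. EPS8L3, an actin regulator, kept its promoter region chr1:109762920-109764515 at 55.3 and 34.7 in sgNC and 30.3 and 34.5 in sgP2. CDHR2, an intermicrovillar protocadherin, kept chr5:176544421-176546679 at 54.1 and 30.1 against 31.3 and 25.2, and USH1C, its anchoring scaffold, kept chr11:17541812-17543192 at 34.7 and 32.2 against 36.3 and 26.3. By percentile within each list, the sgP2 values of USH1C reached on both sides of the sgNC ones, and those of EPS8L3 and CDHR2 lay below both.

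Of the 179 list genes, 4 had a lost region and no sgP2 peak within 50 kb: the 3 trefoil factors and CLDN1. Over all protein-coding genes 487 of 19866 (2.45%) were left so, and nothing is read from the 4. TFF1, TFF2 and TFF3, secreted peptides of gastric and intestinal mucosa, are neighbours and shared a single lost region, chr21:42351126-42351637, 0.387 kb outside TFF2. Fold enrichment was 6.91 and 6.08 in sgNC, and the nearest sgP2 summits were 118 and 114 kb away. The region was held by neither sgP1 list, and at equal length by fold it was still lost, while by −log10 p 1 of 2 sgNC lists held it. MUC13, a transmembrane mucin, had 2 lost and 3 kept regions. Of the 17 trefoil, mucin and secretory genes, 4 thus had a lost region (23.5%, against 15.3% of all genes), 3 of them the same region. A kept region lay near 8 (47.1%, against 48.0%).

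Bile acid and xenobiotic genes had kept regions near 16 of 19 members (84.2%, against 48.0% of all protein-coding genes). They had lost regions near 4 (21.1%, against 15.3%) and gained regions near 2 (10.5%, against 0.866%). Lost regions lay, among others, near ABCB1, a drug efflux pump, with 2 regions, and near CYP2C19 and CYP2S1. The CYP2C19 region, chr10:94777926-94778456, had 6.22 and 9.35 in sgNC, and that of CYP2S1, chr19:41186245-41186616, had 9.94 and 6.27. ABCC3, a bile salt export pump of the basolateral membrane, kept 7 regions, the highest at chr17:50686365-50687204 with 30.7 and 27.5 in sgNC and 17.4 and 26.1 in sgP2. NR1I2, the pregnane X receptor, kept chr3:119794800-119796306 at 33.0 and 19.0 against 17.4 and 23.4.

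In lipid handling, 10 of 17 members had kept regions (58.8%, against 48.0% of all genes). Lost regions lay near 2 members, LIPC, hepatic lipase, with 1 and ACSL5, an acyl-CoA synthetase, with 3. ACSL5 also kept 3, the highest at chr10:112379420-112380522 with 42.6 and 18.8 in sgNC and 41.0 and 33.2 in sgP2. APOA1, APOB, APOC3 and MTTP, apolipoprotein and lipoprotein assembly genes, had neither a lost nor a kept region. APOB and MTTP had no peak within 50 kb in any of the 4 lists. APOA1 and APOC3 each had 4 and 2 peaks within 50 kb in the sgNC lists and 2 and 1 in the sgP2 lists. In glucose metabolism FBP1, fructose-1,6-bisphosphatase, was the 1 of 10 members with a lost region (chr9:94649093-94649860, 9.86 and 5.44 in sgNC), and it kept 2 others.

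In the HNF and FOX network 2 of 15 members had a lost region, HNF4A itself and NR5A2. The NR5A2 region was weak, with 4.50 and 3.23 in sgNC, and was in neither sgNC list at equal length. HNF4G, the paralogue of HNF4A, and PDX1, a pancreatic homeobox factor, had 3 kept regions each within 50 kb. Those 27.1 and 34.4 kb from PDX1 had CDX2 as the nearest gene. Among growth genes, CDKN1A, the cyclin-dependent kinase inhibitor p21, lost chr6:36641556-36641971 (8.75 and 5.37), 34.7 kb outside the gene, and had no kept region. The sgP2 replicate 2 list held 3 peaks within 50 kb of CDKN1A, and the sgP2 replicate 1 list held 0. The nearest sgP2 summit to the lost region lay 1.45 kb away, in replicate 2. MET, the hepatocyte growth factor receptor, lost 1 and kept 6, among them its promoter.

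Counts of members with a lost region in the remaining lists were near or below the share of all genes (15.3%). So were those of the lipid (11.8%), glucose (10%), HNF and FOX (13.3%) and growth (14.3%) lists above. GATA4 had a lost region among gastric and intestinal identity factors (1 of 13, with 6 of 13 kept), and 2 of 13 epithelial KLF, ETS and GRHL factors, OVOL1 among them, had one, with 9 of 13 kept. Among basal, squamous and mesenchymal genes only S100A2 had one (1 of 17). DCN had one among markers of stromal, immune and endothelial cells (1 of 12). Of that list, which names cell types other than the epithelial cells studied, 8 of 12 members had a kept region within 50 kb. Over all protein-coding genes the kept share was 48.0%. Without sgNC replicate 2 the counts of members with a lost region in these 4 lists were 7, 11, 9 and 7.

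**Figure D4:**
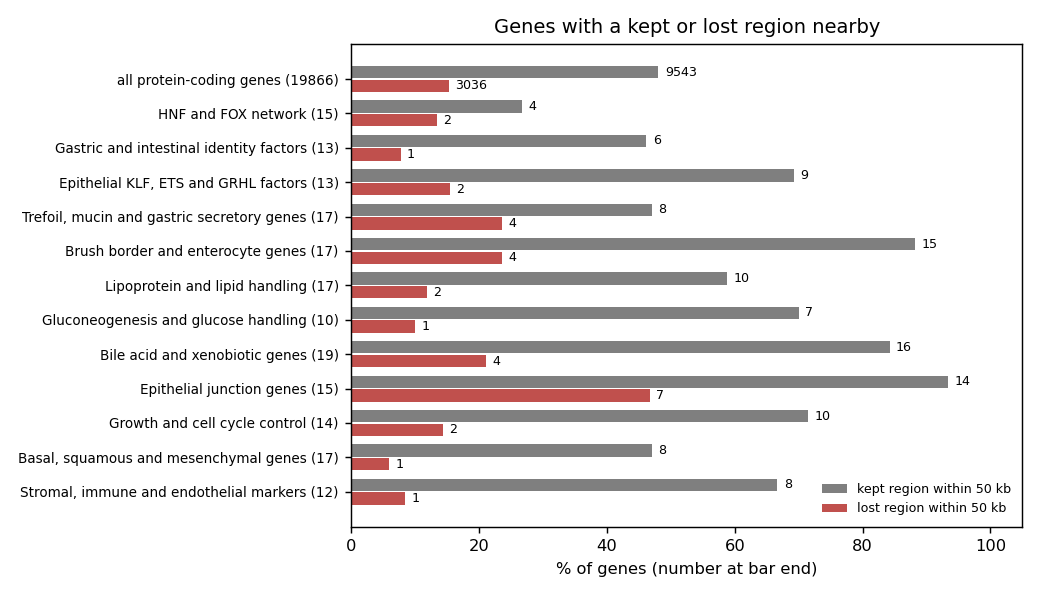
Share of genes with a kept (grey) or a lost (red) region within 50 kb of the gene, for all protein-coding genes and the 12 lists. The x axis is a percentage of the genes of each list, whose size stands in brackets, and the number of genes stands at each bar. Junction genes reach 7 of 15 with a lost region, against 3036 of 19866 genes (15.3%) in all. For a kept region the shares are 93.3% and 48.0%. At equal list length by fold, not drawn, the counts with a lost region were 1 of 15 and 1009 of 19866.

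The same regions were then looked up in the lists that the classes did not use. In the sgP1 lists, 14038 and 11686 peaks long, 35.3% and 22.3% of lost regions had a peak, against 90.0% and 85.8% of kept regions, and 56.1% of lost regions had none in either. These shares also moved with strength. In the sgNC band from 20 to 40 the sgP1 lists held 32.7% and 17.3% of lost and 70.5% and 59.8% of kept regions, and from 60 to 80 they held 61.5% and 43.4% of lost and 92.2% and 87.9% of kept ones. In each of the 5 bands the share was lower for lost than for kept regions, with 10 lost regions in the top band. The part of list length in these shares was not tested.

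With the P1-specific antibody, the sgP2 lists (5200 and 3916 peaks) held 45.9% and 38.7% of kept regions and 1.69% and 0.565% of lost regions. No lost region was in both of them, against 2821 kept regions (30.7%). The sgNC lists of the same antibody (697 and 260 peaks) held 6.73% and 2.46% of kept regions, and 1 and 0 lost regions. In the sgNC band from 60 to 80, the sgP2 lists of this antibody held 35.1% and 25.8% of kept and 3.28% and 2.46% of lost regions. Few lost regions had a peak with the P1-specific antibody in the sgP2 lists.

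In the induced Panc10.05 and BxPC3 lists, 16.4% to 42.0% of lost regions and 42.3% to 72.1% of kept regions had a peak. The lowest shares in both classes came from the BxPC3 P2-α8 lists, the shortest of the 8 at 12681 and 14666 peaks. All 8 lists held 160 lost regions (8.21%) and 2623 kept regions (28.5%), and none held 762 lost (39.1%) and 1205 kept (13.1%). The gained regions lay close to the lost ones in these lists, at 15.5% to 52.7%. Most lost regions had a peak in at least 1 of the 8 induced lists.

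**Figure D5:**
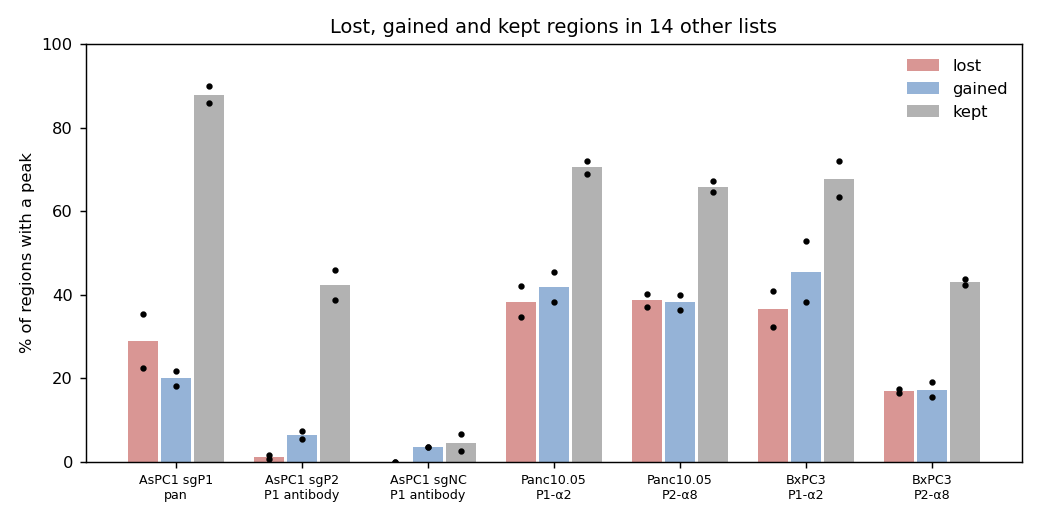
Share of lost, gained and kept regions with a peak in the 14 lists not used to class them. The y axis is a percentage of the regions of each class; points are the 2 replicates and bars their mean. Kept regions exceed lost regions in every list, most with the pan antibody in sgP1 (90.0% and 85.8% against 35.3% and 22.3%) and with the P1-specific antibody in sgP2 (45.9% and 38.7% against 1.69% and 0.565%).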

How the data were processed

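Pan-HNF4α ChIP-seq of AsPC1 sgNC and sgP2 cells (2 libraries each) was read from the deposited narrowPeak lists, 1 per library. The submitters' processing notes name Bowtie2 2.2.9, MACS2 2.2.7 and the builds hg38 and mm10 with no role or order; each list belongs to 1 library, so replicates were not pooled. In the deposited lists the fold enrichment is a linear ratio, p-values and q-values are −log10 values, and the integer score was not used. Peak positions were used as deposited. The lowest −log10 q was 2.00 to 2.01 in the 4 lists. Read depth is unknown, so no interval or floor is given.

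Peaks were merged at 1 bp or more of overlap (pandas 2.3.3, numpy 2.4.6) and checked against bedtools 2.31.1, with 0 differing calls over the 4 lists. The classing code was also run on simulated lists, all made from sgNC replicate 1 with small shifts of position. It recovered 1000 of 1000 lost, 100 of 100 gained and 23095 of 23095 kept regions. The simulated lists lack the differences in length and strength of the real ones. Full recovery thus checks the code only, not how reliable the real classes are. Genes came from a RefSeq table (GRCh38.p14) of 19866 protein-coding genes, without 171 genes of other scaffolds. Starts came from RefSeq windows, which cover 15843 of these genes and none on chromosome 8. The build was checked: 14.6% to 17.2% of summits lay within 1 kb of a start, against 2.52% to 2.64% after a shift of 100 kb. Whole-library measures were compared by exact permutation. In the labels, same-numbered libraries share only a number (correlation of deviations 0.0188). Whether they share a culture or batch is unknown.

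The genes named are the first 10 lost, gained and kept regions by mean percentile, the 5 kept regions that fell or rose most, the genes with most lost regions, HNF4A, and list genes with a lost region or up to 4 per list with a kept one at the promoter or inside the gene. The members, lists and rules were chosen with earlier results of these data known. Alternatives were stricter q-values, equal list lengths, other overlap rules, other distances and leaving out each replicate. A few genes that these rules name are not reported here.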

Additional observations from a re-analysis of the deposited data

How the results depend on the processing

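Which regions are lost or gained depends on list length and threshold. The main counts were 1948 lost, 110 gained and 9188 kept. At a −log10 q of at least 20 they were 537, 33 and 3787. Only 28 of the 1948 lost and 1 of the 110 gained regions kept their class at that cut. Most of the 537 and 33 were thus not lost or gained in the full lists. At equal length by fold 676 were lost and 564 gained, and at equal length by −log10 p 674 were lost and 519 gained. Gained regions numbered 549.5 (a mean over both lists) with 50% reciprocal overlap and 369.5 with summits within 100 bp. Leaving out 1 library relaxes the rule and gave 2644 to 9450 lost, 165 to 1195 gained and 9299 to 11056 kept regions. Protein-coding genes with a lost region numbered 3036, and 1486 within 10 kb, 1646 as nearest gene only, 1009 at equal length by fold and 3853 to 10099 with 1 library left out. Members of the gene lists with a lost region numbered 31, and 20 within 10 kb, 16 at equal length by fold and 44 to 123 with 1 library left out.

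The share of peaks at promoters, 0.201 points apart, ranged from -1.11 to 1.52 with 1 library left out, and was reversed without sgNC replicate 2 (-1.11) and without sgP2 replicate 2 (-0.186). The cause was not tested. With 1 library left out the log2 ratio of peak number ranged from -0.83 to -0.15, width from -52 to -26 bp, the share inside genes from 0.0495 to 0.689 and the share over 50 kb away from -0.79 to -0.16 points. With a replicate block the log2 ratio of peak number was -0.49 (exact sign-flip permutation p = 0.5, the smallest that 2 pairs allow), and the block changed no call, as none of the 5 measures passed the threshold in either fit. The planned share of summits on an HNF4 motif was not run because no genome was used here, and motifs were searched in promoter windows only. The distance to either gene end as an alternative for promoters was added after seeing the data.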
